A study of Mus musculus with 18 samples.

Results

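The Asb genes encode proteins with ankyrin repeats and a SOCS box, and 10 of them (Asb2, Asb5, Asb8, Asb10, Asb11, Asb12, Asb14, Asb15, Asb16 and Asb18) were followed in mouse gracilis muscle, which the labels spell gracillus, after clenbuterol. The members were chosen by name with earlier results of these arrays known, and every probe set that the platform annotation pairs with 1 of these symbols was taken, which gave 14 probe sets of 45037 on both chips and 10 genes of 18194 named there. Of the 14, 12 were bright enough to be tested, among 33752 tested in all. Clenbuterol is a β2-adrenergic agonist that promotes muscle growth, and the study asked how mRNA abundance in muscle differs after short and long administration.

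All mice were C57BL/6J males of 3 to 5 weeks of age that were injected once a day for 10 days. The C group received vehicle throughout, the 24 h group received vehicle for 9 days and then clenbuterol at 1 mg/kg once, and the 10 D group received clenbuterol at 1 mg/kg on all 10 days. In every group the tissue was collected 24 h after the final injection. RNA of 3 mice was combined into a pool, there were 3 pools per group, and 1 array of each of the chips MOE430A and MOE430B was run per pool, so 27 mice and 18 arrays were used. The study had selected the mice by blood urea nitrogen and weight gain and had assigned whole cages to treatments, so the contrasts describe selected animals, and pools of a group may share cages.

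In an Asb protein the ankyrin repeats bind a target, and the SOCS box recruits the adaptor proteins Elongin B and Elongin C together with the scaffold Cullin 5 and the RING protein Rnf7. The complex acts as a ubiquitin ligase, and the bound target can be marked for degradation by the proteasome. Several Asb genes are known for high expression in striated muscle, among them Asb2, which directs the degradation of filamins, and Asb15, which has been studied as a regulator of muscle growth.

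Because Asb15, Asb10, Asb14 and Asb18 had the smallest p-values at 24 h among the members, the windows around their transcription starts are shown, from 250 bases before to 50 bases after the start, as RefSeq gives them for GRCm38.p6. Capitals mark E boxes (CANNTG, the general site of bHLH factors, myogenic ones among them) and MEF2 boxes. Both were searched on both strands, and each sequence reads 5′ to 3′ along the gene's own strand. Asb15 lies at chr6:24527894-24528193 on the plus strand, Asb10 at chr5:24540929-24541228 on the minus strand, Asb14 at chr14:26894364-26894663 on the plus strand and Asb18 at chr1:90014617-90014916 on the minus strand.
Asb15: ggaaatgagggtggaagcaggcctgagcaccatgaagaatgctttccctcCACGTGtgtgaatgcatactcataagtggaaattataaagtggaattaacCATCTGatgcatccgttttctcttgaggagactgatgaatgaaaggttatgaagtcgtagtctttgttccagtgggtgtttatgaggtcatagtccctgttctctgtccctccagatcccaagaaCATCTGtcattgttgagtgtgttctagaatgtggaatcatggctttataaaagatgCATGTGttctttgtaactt
Asb10: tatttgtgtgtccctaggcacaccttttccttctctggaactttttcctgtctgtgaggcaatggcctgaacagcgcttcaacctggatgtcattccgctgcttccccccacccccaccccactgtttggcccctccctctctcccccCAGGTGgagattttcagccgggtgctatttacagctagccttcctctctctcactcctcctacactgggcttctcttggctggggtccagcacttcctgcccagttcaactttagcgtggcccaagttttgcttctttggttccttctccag
Asb14: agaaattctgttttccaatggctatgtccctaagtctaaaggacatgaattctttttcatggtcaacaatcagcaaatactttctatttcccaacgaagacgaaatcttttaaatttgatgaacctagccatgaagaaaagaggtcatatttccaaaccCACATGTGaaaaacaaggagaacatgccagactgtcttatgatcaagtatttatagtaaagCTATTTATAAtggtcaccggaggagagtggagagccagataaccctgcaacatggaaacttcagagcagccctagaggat
Asb18: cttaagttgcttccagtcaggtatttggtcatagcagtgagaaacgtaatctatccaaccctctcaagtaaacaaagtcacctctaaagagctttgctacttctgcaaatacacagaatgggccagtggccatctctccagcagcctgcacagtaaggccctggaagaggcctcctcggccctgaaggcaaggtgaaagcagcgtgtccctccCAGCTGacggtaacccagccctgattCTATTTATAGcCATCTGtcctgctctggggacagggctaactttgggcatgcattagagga
The Asb15 window held 4 E boxes, and the Asb10 window held 1, which begins at position -102 from the start. In Asb14 both E boxes overlap each other and a MEF2 box begins at position -30, and in Asb18 a MEF2 box begins at position -11. All 10 genes matched the table, with 14 windows, of which 12 held an E box, against 72.3% of the 32851 windows of all genes. A MEF2 box was present in 5 windows, those of Asb14, Asb18, Asb12, Asb16 and 1 of the windows of Asb5, against 1.86% of all windows. The short core of the cAMP response element (TGACG) was present in 4 windows against 20.8% of all, and the full element (TGACGTCA) in 0 against 1.79%. Matches describe the letters in these windows only.

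Levels are given as multiples of the array median, the signal of a probe set over the median of all probe sets on that array. Probes differ in how strongly they bind, so levels of different probe sets are not ranked against each other here. In all C pools the 12 tested probe sets lay above the array median, and each of the 10 genes had at least 1 such probe set. The 2 probe sets that were not tested, 1 of Asb15 and 1 of Asb18, lay below it in every C pool.

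At 24 h, Asb15 and Asb10 mRNA levels were lower than in C, and no member that was tested passed the threshold in the other direction. A probe set was called when its limma p-value, adjusted over all 33752 tested, was under 0.1. Of the 12 tested member probe sets, 3 were called lower (Asb15 once and Asb10 on both of its probe sets), beside 0.127% of all tested probe sets. None was called higher, beside 0.329%. At an unadjusted p under 0.05, 5 were lower (Asb15, both of Asb10, Asb14 and Asb18), beside 3.55% of all tested, and 1 was higher (Asb5), beside 5%. A per-gene analysis of variance called 1 member, the Asb15 probe set. Because the members were chosen with such results known, these counts are descriptions and nothing is read from the shares.

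**Figure D1:**
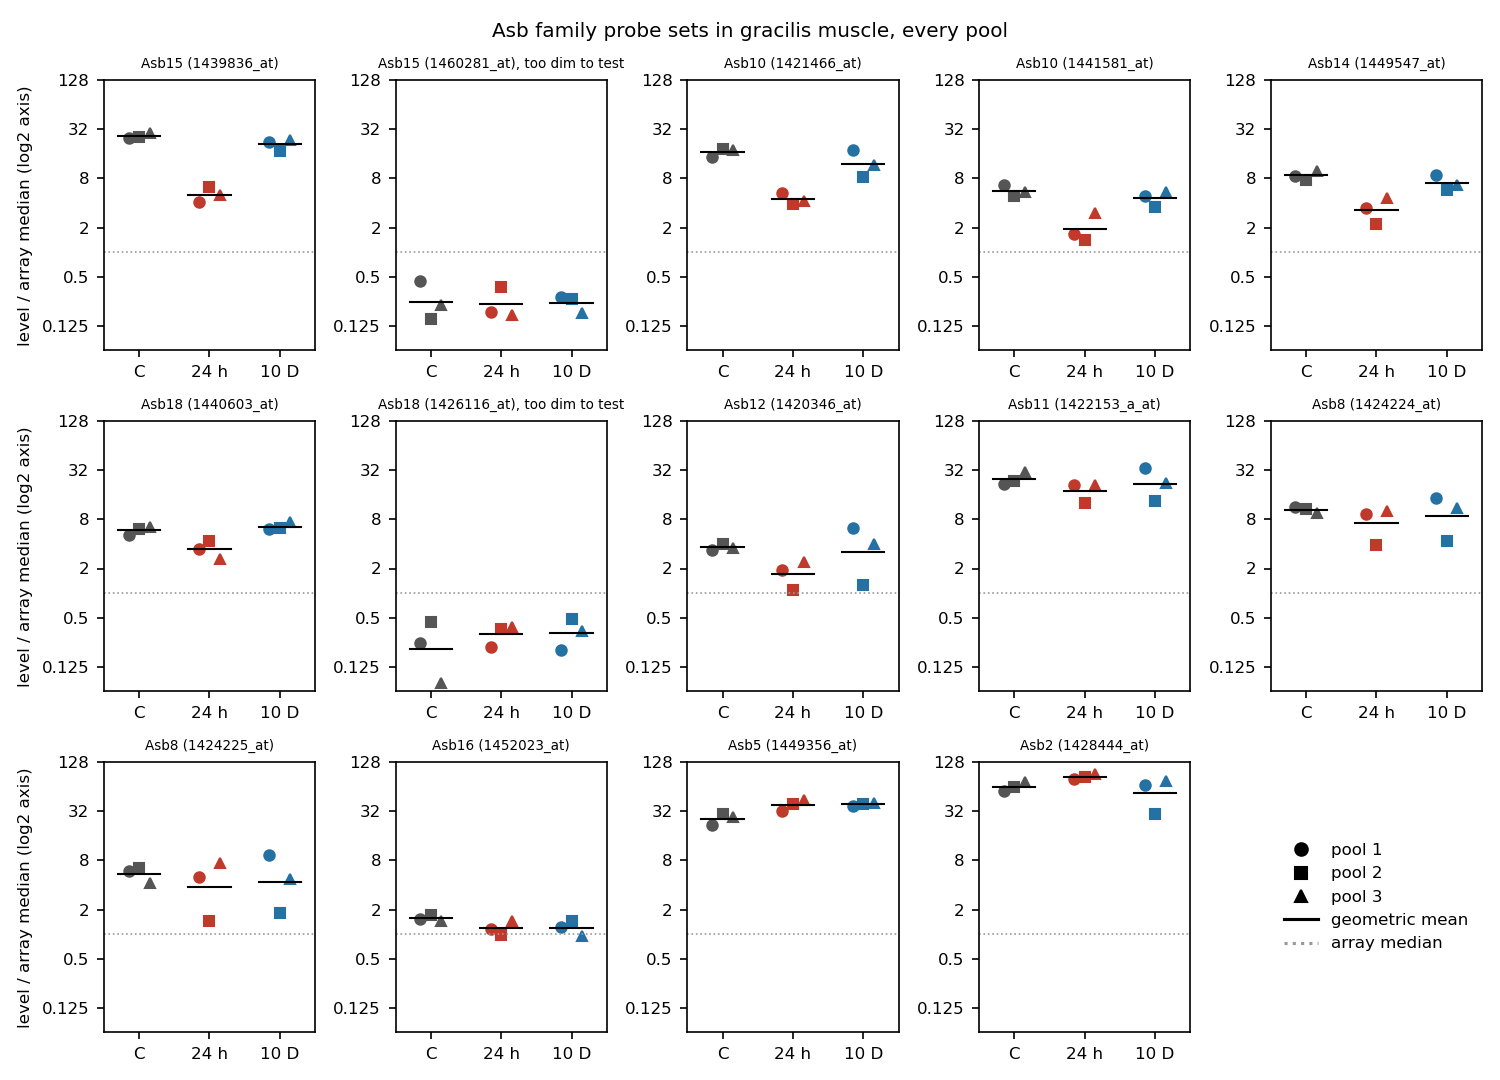
Level of each of the 14 Asb probe sets as a multiple of the array median (log2 axis) in the 3 pools of the C, 24 h and 10 D groups. Symbols give the pool, bars the geometric mean of a group and the dotted line the array median. Asb15 (1439836_at) stood between 4.05 and 6.32 in the 24 h pools and at or above 17.1 in all other pools.

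Asb15 showed the largest change of the members. Its probe set 1439836_at on MOE430B stood at 25.2, 26.0 and 28.9 times the array median in the C pools, at 4.05, 6.32 and 5.07 in the 24 h pools and at 22.3, 17.1 and 23.6 in the 10 D pools. Every 24 h pool was below every other pool, and every 10 D pool was below every C pool, though by far less. The means were 26.7 ± 1.95, 5.14 ± 1.14 and 21.0 ± 3.42 (SD, n = 3 pools). The 24 h level was 5.26-fold lower than C, a log2 change of -2.40 (SE 0.23, limma adjusted p = 0.0026), the third smallest p of all tested probe sets. The call was made in all 19 alternative analyses, with adjusted p from 0.0002 to 0.053.

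The level of Asb15 was 4.11-fold higher in the 10 D group than in the 24 h group, which were different mice. The log2 difference was 2.04 (SE 0.23, limma adjusted p = 0.023). Asb15 was the 1 member called in that contrast, beside 0.0148% of all tested probe sets. This call was absent when 24 h pool 1 (adjusted p = 0.12) or 24 h pool 3 (0.14) was left out and when eBayes was run without a trend (0.11). Against C the 10 D level differed by -0.36 (SE 0.23, adjusted p = 1).

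A further Asb15 probe set, 1460281_at on MOE430A, was too dim to be tested. It stood at 0.445, 0.152 and 0.224 in the C pools, 0.185, 0.378 and 0.17 in the 24 h pools and 0.284, 0.268 and 0.178 in the 10 D pools. These pools overlapped in all groups, and the log2 difference of 24 h from C, in a fit without the filter, was -0.12 (SE 0.55). The Asb15 result rests on 1 bright probe set.

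Asb10 was measured by 2 bright probe sets, 1 on each chip. On MOE430A, 1421466_at stood at 14.6, 18.4 and 17.8 in the C pools, 5.24, 3.93 and 4.26 in the 24 h pools and 17.7, 8.23 and 11.8 in the 10 D pools. On MOE430B, 1441581_at stood at 6.69, 4.82 and 5.41 in the C pools, 1.66, 1.39 and 3.0 in the 24 h pools and 4.87, 3.6 and 5.39 in the 10 D pools. With both probe sets all 24 h pools lay below all C and all 10 D pools, while the 10 D pools overlapped the C pools. The 24 h level was 3.8-fold lower than C with the first (log2 -1.93, SE 0.28, limma adjusted p = 0.032) and 2.93-fold lower with the second (log2 -1.55, SE 0.30, limma adjusted p = 0.078). At 10 D the log2 differences from C were -0.49 and -0.30, both with an adjusted p of 1. For 10 D against 24 h the differences were 1.43 (adjusted p = 0.21) and 1.25 (adjusted p = 0.36), and neither was called. The first was called in 4 of the 19 alternative analyses, among them that without 10 D pool 2 (lowest adjusted p over all of them 0.041).

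Over the 19 alternatives the log2 difference of Asb10 at 24 h ran from -2.04 to -1.84 with the first probe set and from -1.88 to -1.32 with the second. The call of 1421466_at at 24 h was absent without C pool 1 (adjusted p = 0.14), C pool 2 (0.18), C pool 3 (0.16), 24 h pool 2 (0.12) or 24 h pool 3 (0.14) and in the analysis of variance (0.14). That of 1441581_at was absent in 9 of 19 alternatives, among them each C pool left out (0.34, 0.25 and 0.23), 24 h pool 1 (0.2), 24 h pool 2 (0.21) or 10 D pool 3 (0.13) left out.

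Asb14, a further ankyrin repeat and SOCS box member, had pools that were apart without a call. Its probe set 1449547_at stood at 8.6, 7.63 and 9.93 in the C pools, 3.5, 2.22 and 4.64 in the 24 h pools and 8.91, 5.69 and 6.63 in the 10 D pools. All 24 h pools lay below all pools of the other groups, and C and 10 D overlapped. The log2 difference of 24 h from C was -1.39 (SE 0.29, limma adjusted p = 0.12), a 2.62-fold lower level. The adjusted p ran from 0.047 to 0.39 over the alternatives and was under 0.1 in 6 of 19, among them the analysis without 10 D pool 2 (0.071) and quantile normalization (0.047).

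Asb18 also had 24 h pools apart from the rest without a call. Its probe set 1440603_at stood at 5.21, 6.07 and 6.38 in the C pools, 3.5, 4.32 and 2.65 in the 24 h pools and 6.04, 6.22 and 7.42 in the 10 D pools. The 24 h pools were below every other pool, and the 10 D pools overlapped the C pools. The log2 difference of 24 h from C was -0.78 (SE 0.22, limma adjusted p = 0.27), and that of 10 D from 24 h was 0.93 (adjusted p = 0.36). The dim Asb18 probe set 1426116_at ran from 0.0794 to 0.488 over the 9 pools with overlap of all groups, and its log2 difference at 24 h was 0.62 (SE 0.65).

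**Figure D2:**
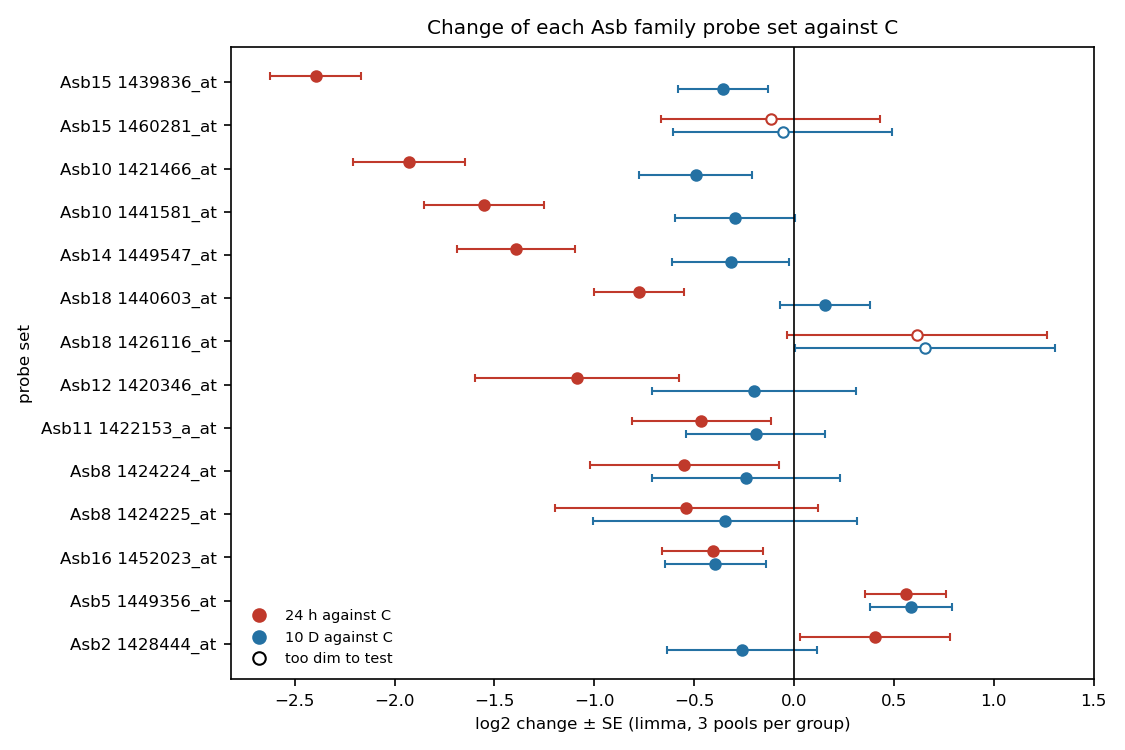
Log2 change against C of each Asb probe set (horizontal axis) with its SE from limma, for 24 h and 10 D with 3 pools per group. Open points are probe sets too dim to test. The 24 h points of Asb15 (-2.40) and Asb10 (-1.93 and -1.55) lie farthest to the left, and the 10 D points lie between -0.49 and 0.59 for all tested probe sets.

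Asb12, Asb11, Asb16 and Asb8 had lower fitted levels at 24 h that were not called. Asb12 (1420346_at) stood at 3.4, 3.99 and 3.53 in the C pools, 1.9, 1.1 and 2.39 in the 24 h pools and 6.2, 1.27 and 4.0 in the 10 D pools. All its 24 h pools were below all C pools, and the 10 D pools, from 1.27 to 6.2, overlapped both groups. The log2 difference at 24 h was -1.09 (SE 0.51, adjusted p = 0.61).

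Asb11, whose zebrafish counterpart acts on Delta in Notch signalling, was bright on 1422153_a_at, at 21.4, 23.3 and 30.0 in the C pools, 21.1, 12.7 and 21.3 in the 24 h pools and 34.1, 13.4 and 22.0 in the 10 D pools. Its 24 h pools were below its C pools by a narrow gap, between 21.3 and 21.4, and the log2 difference was -0.46 (SE 0.35, adjusted p = 0.78). Asb16 (1452023_at) stood close to the array median, at 1.55, 1.73 and 1.43 in the C pools, 1.16, 0.98 and 1.45 in the 24 h pools and 1.23, 1.44 and 0.953 in the 10 D pools. Both treated groups overlapped C, with log2 differences of -0.41 at 24 h and -0.39 at 10 D (SE 0.25).

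Asb8 was measured by a pair of probe sets on MOE430A with the same pattern. The brighter, 1424224_at, stood at 11.3, 10.8 and 9.46 in the C pools, 9.43, 3.88 and 10.1 in the 24 h pools and 14.8, 4.29 and 11.1 in the 10 D pools. The other, 1424225_at, stood at 5.98, 6.53 and 4.19 in the C pools, 4.96, 1.43 and 7.49 in the 24 h pools and 9.42, 1.8 and 4.69 in the 10 D pools. In both treated groups pool 2 was low with both probe sets and the other pools overlapped C. The log2 differences at 24 h were -0.55 (SE 0.47) and -0.54 (SE 0.66), with adjusted p of 0.82 and 0.88. Without 24 h pool 2 that of 1424225_at turned to 0.16.

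Pool 2 of both treated groups was also low more widely. Of the 12 tested member probe sets, 8 had their lowest 24 h level in pool 2 and 9 their lowest 10 D level in pool 2, beside 39.2% and 41% of all tested probe sets. In C, 7 had their lowest level in pool 1, beside 33.2%. The median signals of 24 h pool 2 and 10 D pool 2 were 35.7 and 33.6 on MOE430A, where that of C pool 1 was 30.8. On MOE430B they were 13.2 and 14.9, the lowest of that chip. Whether array brightness bears on these levels was not tested. The part of both treated pools numbered 2 in the members' differences can be given by leaving them out. Without 10 D pool 2 the difference of 10 D from C turned positive for Asb2 (0.16), Asb8 (0.29 and 0.28), Asb11 (0.15) and Asb12 (0.46). Without both of these pools, a step chosen after seeing the data, 5 member probe sets were called lower at 24 h, with Asb14 (0.057) and Asb18 (0.077) beside Asb15 and Asb10. In that analysis 0.684% of all tested probe sets were called lower, and calls in either direction over all tested rose from 154 to 599.

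Asb5 and Asb2 had higher fitted levels at 24 h. Asb5 (1449356_at), which has been linked to the growth of collateral arteries and to satellite cells, stood at 21.9, 29.6 and 27.0 in the C pools, 32.4, 39.0 and 44.2 in the 24 h pools and 36.8, 39.3 and 40.8 in the 10 D pools. All treated pools were above all C pools, and 24 h and 10 D overlapped. The log2 differences from C were 0.56 at 24 h (SE 0.20, limma adjusted p = 0.46) and 0.59 at 10 D (SE 0.20, adjusted p = 1), and neither passed the threshold.

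Asb2, whose ligase acts on filamins, stood on 1428444_at at 56.4, 62.9 and 72.1 in the C pools, 79.2, 83.1 and 90.6 in the 24 h pools and 67.2, 29.6 and 74.8 in the 10 D pools. All 24 h pools were above all C and all 10 D pools. The log2 difference of 24 h from C was 0.41 (SE 0.38, adjusted p = 0.83), and that of 10 D from 24 h was -0.67 (adjusted p = 0.98).

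Across the members the 24 h pools lay wholly below the C pools in 7 of 12 tested probe sets and wholly above in 2, beside 7.23% and 9.6% of all tested probe sets. The median log2 difference at 24 h was -0.66 over the members and 0.02 over all tested. At 10 D, 0 members were called by limma or by the analysis of variance, beside 0% of all tested called lower, and 1 (Asb5, higher) had an unadjusted p under 0.05, beside 2.64%. The 10 D pools lay wholly below C in 1 probe set (Asb15) and wholly above in 1 (Asb5), beside 4.52% and 5.76%. The median log2 difference at 10 D was -0.25 over the brightest probe set per gene and 0.01 over all tested, and it turned to 0.16 without 10 D pool 2. For 10 D against 24 h the pools lay wholly higher in 5 probe sets (Asb15, both of Asb10, Asb14 and Asb18) and wholly lower in 1 (Asb2), beside 4.17% and 5.1%. The F test over the 3 groups called 2, Asb15 (adjusted p = 0.0054) and 1421466_at of Asb10 (0.073), beside 0.216%. That of Asb10 was absent in 9 of 19 alternatives (adjusted p up to 0.31), and that of Asb15 in none (up to 0.081). The 24 h and 10 D contrasts with C share the C pools, so their values are given side by side only. In whole muscle, fewer cells of a type and less RNA per cell cannot be told apart.

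The 8 Asb genes that are not among the members were all on the arrays, and 6 were tested. In this list and those below, each gene was represented by its brightest tested probe set. The counts here therefore do not cover all 16 tested probe sets of these genes. At 24 h 0 were called by limma or by the analysis of variance. None passed an unadjusted p of 0.05, beside 5% of all tested probe sets higher and 3.55% lower. The list had a median log2 difference of -0.16 at 24 h, with Asb4 at -0.49 (SE 0.25, adjusted p = 0.65) and Asb7 at 0.28 (SE 0.18, adjusted p = 0.73) at the ends. Whether the members differ from these genes was not tested.

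Of the partners that the Asb proteins share, the Cullin 5 ligase core and the NEDD8 machinery that activates it, 11 of 11 genes were tested. At 24 h 1 was called, higher, beside 0.329% of all tested probe sets. This was Ube2f, the NEDD8 conjugating enzyme that works with Rnf7. Its probe set 1451272_a_at stood at 8.67, 7.49 and 10 in the C pools, 19.4, 22.4 and 20.2 in the 24 h pools and 10.4, 12.1 and 12.8 in the 10 D pools. All 24 h pools were above all other pools, with a log2 change of 1.25 (SE 0.20, limma adjusted p = 0.045). The other Ube2f probe sets had differences from 0.24 to 0.98 and were not called, and the call was absent without any one of the C or 24 h pools (adjusted p up to 0.25).

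The adaptors, the scaffold and the RING protein were not called. At 24 h the log2 differences were 0.41 for Elob (Elongin B), 0.16 for Eloc (Elongin C), -0.03 for Rnf7 and -0.30 for Cul5 (SE 0.35, 0.21, 0.22 and 0.46). The further Cul5 probe sets stood at -0.59 and -1.17 (adjusted p = 0.88 and 0.62). The median of the 11 genes was 0.16.

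Among 14 genes known as targets or partners of Asb members, 13 were tested. At 24 h 1 was called, higher, beside 0.329% of all tested probe sets. This was Flnc, the filamin of muscle and a target of the Asb2 ligase. Its probe set 1447812_x_at stood at 25.7, 26.3 and 31.2 in the C pools, 71, 82.6 and 94.3 in the 24 h pools and 22.5, 24.9 and 44.3 in the 10 D pools. All 24 h pools were above all others, with a log2 change of 1.57 (SE 0.30, limma adjusted p = 0.078). The other Flnc probe set, 1449073_at, differed by 0.76 (adjusted p = 0.67), and the call of the first was absent without any one of the C or 24 h pools (up to 0.34). Flna, the widely expressed filamin, differed by 0.28 (SE 0.28, adjusted p = 0.85). The median of the 13 was -0.14.

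Of 17 other SOCS box genes, 16 were tested and 0 were called at 24 h by limma or by the analysis of variance. At an unadjusted p under 0.05, 2 were higher and 1 lower, beside 5% and 3.55% of all tested probe sets. Wsb1, a WD repeat member of the class, had the smallest adjusted p, with a log2 difference of 1.41 (SE 0.33, adjusted p = 0.16).

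**Figure D3:**
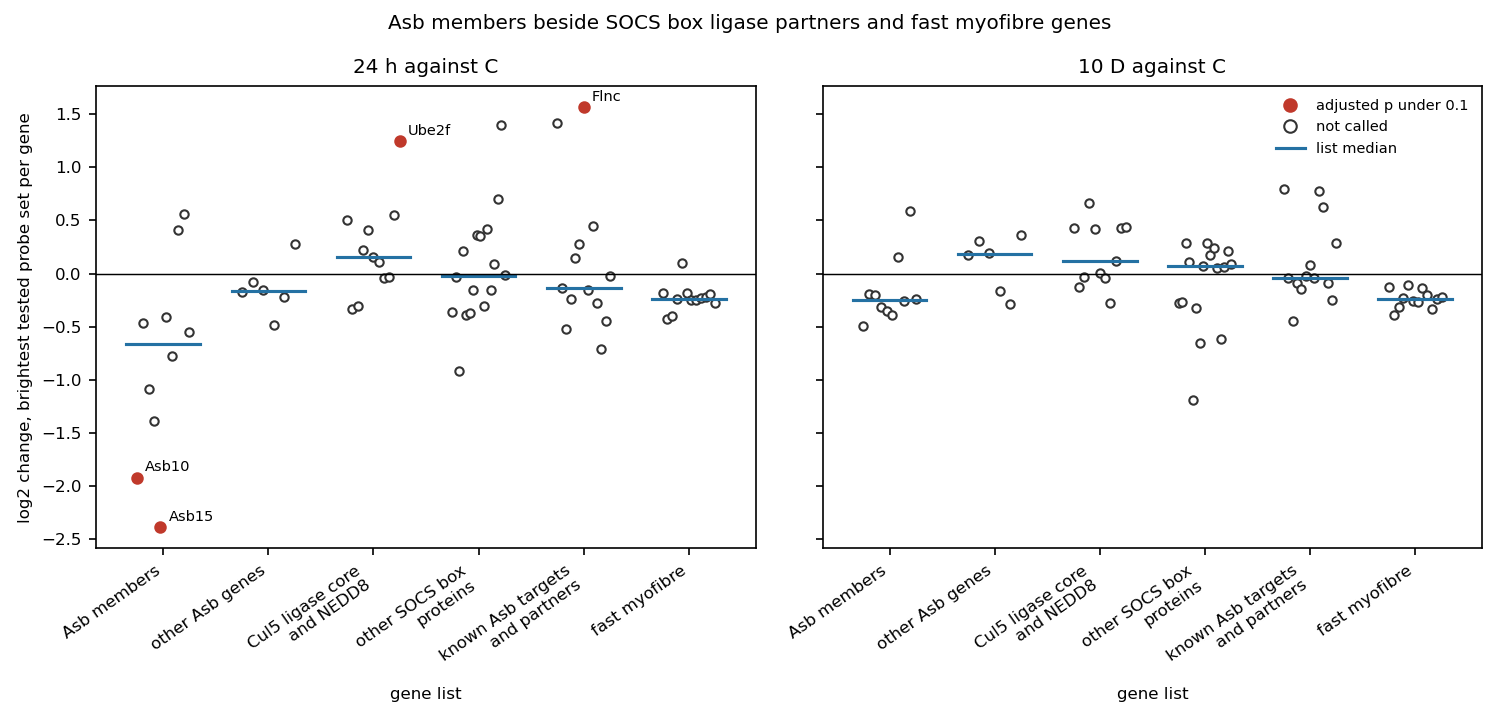
Log2 change against C of the brightest tested probe set per gene (vertical axis) at 24 h and at 10 D, for the Asb members and 5 gene lists on the horizontal axis. Filled points have an adjusted p under 0.1 and bars are list medians. At 24 h Asb15, Asb10, Ube2f and Flnc are filled, and at 10 D no point is.

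In C all 12 genes of the fast and all 9 of the slow myofibre list lay above the array median on average. So did all 5 adipocyte, 7 fibroblast and 7 endothelial genes, so this does not single out muscle or gracilis. The slow list includes Myh2, the myosin heavy chain of fast type IIA fibres. The summed level of the fast genes ran from 2.61e+03 to 4.26e+03 in C, from 2.32e+03 to 3.41e+03 at 24 h and from 1.96e+03 to 3.46e+03 at 10 D, with 11 of 12 fitted lower at 24 h, a median of -0.24 and 0 called. Of the lists of other cell types, the skin genes had the lowest median at 24 h (-1.33 over 6 of 6 fitted lower, 0 called), with summed levels of 5.15 to 23.5 in C and 3.82 to 6.18 at 24 h. The medians at 24 h were -0.49 for 5 adipocyte genes, -0.40 for 7 fibroblast genes, 0.14 for 7 endothelial genes, 0.09 for 7 leukocyte genes, -0.26 for 5 nerve genes, -0.51 for 3 erythroid genes, -0.10 for 6 satellite cell genes and -0.14 for the 9 genes of the slow myofibre list, Myh2 among them. Only S100a8, a neutrophil gene in the leukocyte list, was called among them (0.145 in C and 2.3 at 24 h, limma adjusted p = 0.044). Its C pools (0.205, 0.0354 and 0.196) were dim, and it passed the filter through its treated pools. The call was absent in 6 of the 18 alternatives that tested it, among them C pool 1, C pool 3 or any 24 h pool left out and the analysis of variance (up to 0.2). In the same list Cd74 (-1.44) and Ptprc (-0.985) had lower log2 levels at 24 h. At an unadjusted p under 0.05, 2 leukocyte genes were higher and 2 lower, beside 5% and 3.55% of all tested probe sets. The part of these cell types in the Asb differences was not tested.

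The probe sets whose levels ran most like Asb15 over the 9 pools, by Pearson's r of log2 levels with 1 probe set per gene, were those of Ms4a1 (r = 0.98), Iglon5 (0.98), Pik3ip1 (0.97), Prkg1 (0.97) and Wdcp (0.97). All pools share the 3 group means, so these correlations describe the pools and carry no p. The genes were picked by levels that include the 24 h pools. Their differences and p-values at 24 h therefore follow from the choice and are descriptions only. Ms4a1 and Wdcp were not called at 24 h (limma adjusted p = 0.11 for each). Iglon5 was called (0.063), but not without any one of the C or 24 h pools (up to 0.25). Pik3ip1, which encodes an inhibitor of PI3 kinase, had mean levels of 9.48 in the C pools, 3.64 in the 24 h pools and 8.92 in the 10 D pools, with a log2 change of -1.38 at 24 h (limma adjusted p = 0.048), a call absent in 8 of 19 alternatives, among them each C or 24 h pool left out (up to 0.23). Prkg1, the cGMP-dependent protein kinase, had means of 20.4, 7.12 and 16.8, with a change of -1.52 (limma adjusted p = 0.021), a call absent without C pool 1, 2 or 3, without 24 h pool 3 or with eBayes without trend (up to 0.12).

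Among the members, r with Asb15 was 0.93 and 0.89 for both probe sets of Asb10, 0.89 for Asb18 and 0.86 for Asb14. It was 0.63 for Asb12, from 0.20 to 0.43 for Asb8, Asb11 and Asb16, and -0.42 and -0.46 for Asb2 and Asb5.

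**Figure D4:**
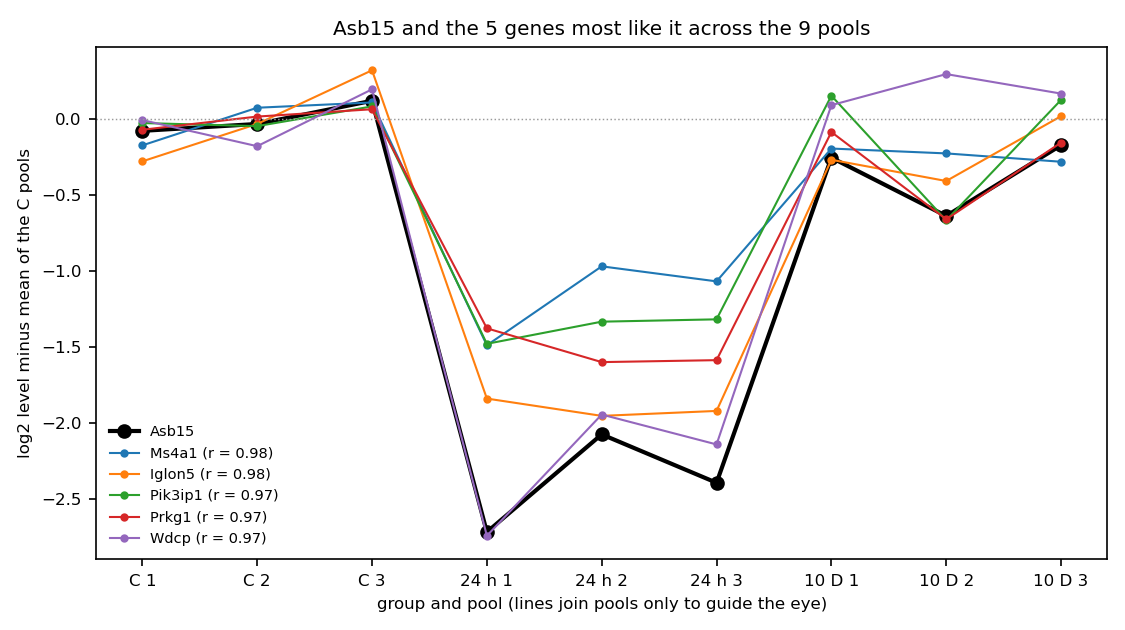
Log2 level minus the mean of the C pools (vertical axis) in each of the 9 pools (horizontal axis) for Asb15 and the 5 genes with the highest r. Lines join the pools of a gene and carry no order. All 6 genes were lower in every 24 h pool than in every other pool. In 24 h pools 2 and 3 the value of Asb15 was the lowest of the 6 genes.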

How the data were processed

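RNA of 9 pools was hybridised to MOE430A and MOE430B arrays. The authors quantified each array with MAS 5.0, and the deposited values are intensities on a linear scale, 1 per probe set, with no scaling between arrays. The median intensity ran from 30.8 to 88.4 on MOE430A and from 13.2 to 37.1 on MOE430B, and with 3 pools per group the number of arrays limits the precision.

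R 4.3.3 and limma 3.58.1 were used. Signals of 0 (18 values) were first set to 0.05, then all signals were divided by the median of the array, and log2 followed. For 100 probe sets on both chips the MOE430A copy was kept. Gene names came from the platform annotation updated through RefSeq (GRCm38.p6). With 1 gene were 34945 probe sets, with several 932 and with none listed 9160. The test took probe sets whose mean log2 signal reached the chip's 25th percentile (14.1 for MOE430A, 6.97 for MOE430B). Each chip had 1 linear model of group means (eBayes with trend, 6 residual degrees of freedom), with two-sided p-values and 1 Benjamini-Hochberg adjustment across both chips. The F test used the same fit. For 3 pools against 3 an exact permutation test cannot go below 0.1, so none was used.

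The members, lists and tests were chosen with earlier results of these data known. The text names all members, the list genes with the smallest p or a role in the ligase, and the 5 genes most like Asb15. The limma p-values set a group difference against the spread between pools of different mice, as moderated by eBayes. The 18 alternatives were other scalings, pseudocount, filters, moderation, a per-gene analysis of variance, a replicate block and each of 9 pools left out, and 1 was added later. The scripts were tested on simulated data. No batch or scan day was given in the sources used here.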

Additional observations from a re-analysis of the deposited data

Results flagged for a closer look

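The Asb15 probe set 1439836_at differed between the 2 durations of treatment, which were given to different mice. Against C its log2 difference was -2.40 at 24 h and -0.36 at 10 D, and the contrast of 10 D with 24 h itself gave 2.04 (SE 0.23, limma adjusted p = 0.023), with all 10 D pools above all 24 h pools. The adjusted p of this contrast was 0.12 without 24 h pool 1 and 0.14 without 24 h pool 3. Asb15 was among the genes chosen with earlier results known, so the value is a description.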

How the results depend on the processing

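The call of Asb15 at 24 h was made under all 19 alternatives. The number of member probe sets called at 24 h was 3, and it was 1 by analysis of variance, 5 with both treated pools numbered 2 left out (chosen after seeing the data) and 1 to 4 with 1 pool left out. For 10 D against 24 h the number was 1, and it was 2 with 75th percentile scaling, 2 with quantile normalization, 0 with eBayes without trend, 2 without both pools numbered 2 and 0 to 2 with 1 pool left out. The F test called 2, and 1 with eBayes without trend, 1 by analysis of variance and 1 to 3 with 1 pool left out. At 10 D against C the number was 0 under every alternative. The median over the members at 10 D ran from -0.46 to 0.16 with 1 pool left out and was 0.16 without both pools numbered 2. With a replicate block the counts were 4 at 24 h, 0 at 10 D, 1 for 10 D against 24 h and 2 for the F test, with Asb14 called at 24 h (adjusted p = 0.069). The pool numbers were not taken as a pairing. Deviations of 24 h and 10 D pools with the same number correlated at 0.39, 0.56 and 0.10 on MOE430A. On MOE430B they correlated at 0.12, 0.16 and 0.01. Between 24 h and 10 D pools with unlike numbers the correlations ran from -0.55 (24 h pool 2 with 10 D pool 1) to 0.33 (24 h pool 3 with 10 D pool 1) on MOE430A. For the same pairs on MOE430B they were -0.17 and 0.085. Those of C with treated pools of the same number ran from -0.07 to 0.05 on MOE430A. Signs that turned with both treated pools numbered 2 left out were those of 1424225_at of Asb8 at 24 h (0.16), at 10 D those of Asb2 (0.16), both Asb8 probe sets (0.29 and 0.28), Asb11 (0.15) and Asb12 (0.46), and for 10 D against 24 h that of Asb16 (-0.26). With 1 pool left out the sign of 24 h against C turned for 1424225_at of Asb8 (-1.04 to 0.16), that of 10 D against C for Asb2 (-0.51 to 0.16), 1424224_at (-0.61 to 0.29) and 1424225_at (-0.91 to 0.28) of Asb8, Asb11 (-0.52 to 0.15) and Asb12 (-0.69 to 0.46), and that of 10 D against 24 h for Asb5 (-0.092 to 0.13), both Asb8 probe sets (-0.13 to 0.84 and -0.50 to 0.82), Asb11 (-0.058 to 0.62) and Asb16 (-0.13 to 0.18). None of these values was past the threshold. The cause was not tested.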

Other observations

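A MOE430B probe set that the annotation pairs with no gene is named as Asb5 in the study's own annotation and is not among the members. Its levels were 4.26, 2.77 and 4.05 times the array median in the C pools, 2.94, 3.2 and 2.26 in the 24 h pools and 2.4, 1.74 and 2.64 in the 10 D pools. All 10 D pools were below all C pools. The log2 differences from C were -0.39 at 24 h (SE 0.27, limma adjusted p = 0.74) and -0.71 at 10 D (adjusted p = 1), against 0.56 and 0.59 for the Asb5 probe set of the annotation.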
